A study of Mus musculus with 2 samples.

Results

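The 8 genes described here supply, degrade or accompany the phosphate chemistry of mineralizing tissue: Ank, Enpp1, Alpl, Slc20a1, Slc20a2, Ibsp, Bglap and Bglap2. They were taken by name from the 31055 features counted in both libraries, and each of the 8 matched 1 feature. They were listed with their levels in these libraries known, so the levels and ratios below describe the 2 libraries and carry no test. The cells came from mouse periosteum, the tissue sheet on the outer surface of bone. The library at day 3 after tibial fracture and the library from uninjured bone both came from Prx1Cre;mTmG mice. In these mice Cre recombinase, driven by the Prx1 enhancer of limb mesenchyme, switches a cell and its descendants from membrane tdTomato to membrane EGFP. The labels describe explant culture in serum and bFGF until the dishes were nearly confluent, whereas the design text speaks of cells at passage P0 that were not expanded. The sources used here do not give the number of animals per library. Each group is 1 library, so day, animals, culture and library cannot be told apart, and every interval below is a 95% interval that covers counting error only.

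Extracellular pyrophosphate blocks the growth of hydroxyapatite crystals. Ank encodes a membrane protein that moves pyrophosphate, and the ATP that is a source of it, out of the cell, and Enpp1 encodes the ectoenzyme that cuts pyrophosphate from ATP. Alpl encodes tissue-nonspecific alkaline phosphatase, which hydrolyses pyrophosphate to phosphate and marks cells of the osteoblast lineage and hypertrophic cartilage. Slc20a1 and Slc20a2 encode the sodium-dependent phosphate transporters Pit-1 and Pit-2. Ibsp encodes bone sialoprotein, an acidic matrix protein of mineralizing bone, and Bglap and Bglap2 encode osteocalcin, a late product of osteoblasts.

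Levels are in CPM, the UMIs of a gene scaled to 1000000 UMIs. Day 3 had 16332 barcodes and 227191961 unique molecular identifiers (UMIs, each counting 1 captured transcript), of which 12573 cells were kept; uninjured had 4573 barcodes and 94034112 UMIs, of which 4269 cells were kept. The median was 7449 UMIs per kept cell at day 3 and 19397 in uninjured, and the libraries shared 3 barcodes. EGFP lineage cells were the clusters with EGFP at 500 CPM or more, apart from clusters whose highest marker list was cartilage or a blood-cell type. They numbered 3519 at day 3 (median 31843 UMIs) and 2827 in uninjured (23945 UMIs). All 10 mesenchymal markers were detected in at least 10% of lineage cells of both libraries. The day-3 and uninjured lineage cells fell into clusters that were nearly all of 1 library, except a cluster of 215 day-3 and 84 uninjured cells led by Tagln, Tpm2 and Acta1. Chondrocyte-like cells (163, led by Col2a1, C1qtnf3 and Acan, with 9 of 10 cartilage markers detected) were present at day 3 and numbered 0 in uninjured, so a share up to 0.0703% of the uninjured cells is possible. They also carried the reporter (EGFP at 1988 CPM) and are described apart from the other EGFP cells, which are called lineage cells here. In the chondrocyte-like cells the fibrous collagen gene Col1a1 was at 12051 CPM, above Col2a1 at 3291 CPM. Osteoclast-like cells, the cluster led by Acp5, numbered 428 at day 3 and 76 in uninjured, with 9 of 10 osteoclast markers detected in both and Acp5 at 5188 CPM at day 3 and 2595 CPM in uninjured. Xist, an RNA of female cells, had 39016 UMIs in day-3 lineage cells and 6 in uninjured ones, so the libraries also differed in the sex of the cells.

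Positions are on GRCm38 in GENCODE. Ank (ENSMUSG00000022265) spans chr15:27466677-27594909 on the plus strand, Enpp1 (ENSMUSG00000037370) chr10:24637914-24712159 on the minus strand and Alpl (ENSMUSG00000028766) chr4:137741733-137796384 on the minus strand. Slc20a1 (ENSMUSG00000027397) spans chr2:129198764-129211616 and Slc20a2 (ENSMUSG00000037656) chr8:22476788-22569612, both on the plus strand. Ibsp (ENSMUSG00000029306) spans chr5:104299171-104311469 on the plus strand. Bglap (ENSMUSG00000074483, chr3:88383501-88384464) and Bglap2 (ENSMUSG00000074486, chr3:88377736-88378699) stand side by side on the minus strand, 4801 bases apart. Of the 351 windows of 90 bases in the Bglap transcript, 212 were also in Bglap2. In the last 300 bases of the Bglap transcript, 121 of 211 windows were shared. Whether reads from the shared sequence were assigned to either gene or left out of the counts was not tested. The separate levels of Bglap and Bglap2 are therefore uncertain.

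RefSeq promoters (GRCm38.p6) were at hand for 6 of the 8 genes. The 250 bases before the RefSeq transcription start are shown for Ank and for 3 genes that were lower at day 3, because Ank and these genes moved in opposite directions. RefSeq and GENCODE starts can differ. The Ibsp window runs past the GENCODE start given above, chr5:104299171, and its distances are from the RefSeq start. Capitals mark the GC box, spelled GGGCGG, wherever it was found on either strand. They also mark the TATA box, spelled TATAAA, on either strand. The RUNX core, spelled AACCACA, was searched on both strands and had no match in the windows shown. The same held for the homeodomain core, spelled TAATTA. A window of Slc20a1, a gene higher at day 3 that is not shown, held a RUNX core 77 to 71 bases before the start. Other spellings of these motifs were not searched. Alpl has a pair of annotated starts.
Ank, chr15:27466427-27466676, plus strand: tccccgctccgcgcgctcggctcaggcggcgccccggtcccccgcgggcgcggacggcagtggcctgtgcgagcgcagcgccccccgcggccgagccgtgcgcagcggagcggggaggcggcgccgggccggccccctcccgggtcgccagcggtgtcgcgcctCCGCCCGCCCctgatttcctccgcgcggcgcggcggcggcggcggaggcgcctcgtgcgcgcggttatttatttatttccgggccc
Alpl upstream start, chr4:137796385-137796634, minus strand: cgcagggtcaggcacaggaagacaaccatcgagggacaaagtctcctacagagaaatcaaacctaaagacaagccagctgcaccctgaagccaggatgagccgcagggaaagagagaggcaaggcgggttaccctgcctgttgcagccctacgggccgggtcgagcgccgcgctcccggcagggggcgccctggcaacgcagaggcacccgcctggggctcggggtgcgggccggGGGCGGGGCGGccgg
Alpl downstream start, chr4:137766476-137766725, minus strand: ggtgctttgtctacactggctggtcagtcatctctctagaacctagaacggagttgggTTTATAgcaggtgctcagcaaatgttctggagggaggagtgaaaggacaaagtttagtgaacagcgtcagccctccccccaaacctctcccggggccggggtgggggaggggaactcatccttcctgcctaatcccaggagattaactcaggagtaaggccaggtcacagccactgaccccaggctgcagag
Ibsp, chr5:104299037-104299286, plus strand: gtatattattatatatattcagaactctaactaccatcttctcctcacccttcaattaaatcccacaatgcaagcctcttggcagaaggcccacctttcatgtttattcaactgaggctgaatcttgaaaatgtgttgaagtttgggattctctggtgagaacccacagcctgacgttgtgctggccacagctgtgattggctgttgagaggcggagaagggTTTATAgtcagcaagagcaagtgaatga
Bglap, chr3:88384467-88384716, minus strand: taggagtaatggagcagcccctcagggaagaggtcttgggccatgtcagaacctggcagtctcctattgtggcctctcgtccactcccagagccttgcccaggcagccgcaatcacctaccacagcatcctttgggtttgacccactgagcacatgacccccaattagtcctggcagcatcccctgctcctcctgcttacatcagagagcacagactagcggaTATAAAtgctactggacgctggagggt
The Ank window was 81.2% G or C with 2 overlapping GC boxes and the upstream Alpl window 68.4% with 2 overlapping GC boxes. The Ibsp window was 43.6% G or C and the Bglap window 56.4%, and each held a TATA box. It lay 27 to 22 bases before the Bglap start on the strand of the gene. In Ibsp it lay on the opposite strand, 28 to 23 bases before the start. The downstream Alpl window also held it on the opposite strand, 192 to 187 bases before the start. Among 32851 mouse promoter windows of the same length, 32.7% held a GC box, 12.4% a TATA box, 4.40% a RUNX core and 4.84% a homeodomain core. A match is a run of letters, and binding was not measured.

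In EGFP lineage cells Ank, Enpp1, Slc20a1 and Slc20a2 were higher at day 3, and Alpl, Ibsp, Bglap and Bglap2 were lower. Each level is computed on the UMIs summed over the cells of a class; the 3′ assay counts transcript ends, so no division by length applies. Ank, the pyrophosphate exporter, was at 415 CPM at day 3 (50248 UMIs) and 29.4 CPM in uninjured (2112 UMIs), a ratio of 14.1 (13.5 to 14.8). Alpl, the enzyme that removes pyrophosphate, was at 0.413 CPM at day 3 (50 UMIs) and 23.7 CPM in uninjured (1700 UMIs), a ratio of 0.0175 (0.0129 to 0.0231), or 57.3-fold higher in uninjured. The day-3 lineage cells thus held 1005 Ank UMIs for each Alpl UMI, and the uninjured lineage cells 1.24. Mapping and capture efficiency of the 2 transcripts were not measured.

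Enpp1, which makes pyrophosphate outside the cell, was at 39.0 CPM at day 3 and 10.4 CPM in uninjured lineage cells, a ratio of 3.76 (3.48 to 4.06). Slc20a1 was at 146 CPM at day 3 and 18.8 CPM in uninjured, a ratio of 7.77 (7.35 to 8.21). Slc20a2, the other phosphate transporter, was at 62.8 CPM at day 3 and 21.2 CPM in uninjured, a ratio of 2.96 (2.80 to 3.13). All 4 of these genes were therefore several-fold higher in the day-3 cells, Ank by the widest margin.

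Among the bone matrix genes, Ibsp was at 0.694 CPM at day 3 (84 UMIs) and 13.0 CPM in uninjured (935 UMIs), a ratio of 0.0533 (0.0421 to 0.0667). Bglap was at 0.174 CPM at day 3 (21 UMIs) and 6.10 CPM in uninjured (438 UMIs), a ratio of 0.0285 (0.0174 to 0.0440). Bglap2 was at 0.455 CPM at day 3 (55 UMIs) and 9.51 CPM in uninjured (683 UMIs), a ratio of 0.0478 (0.0356 to 0.0630). These UMIs sat in few cells: the 10 richest cells held 53.6% of Ibsp UMIs at day 3 and 37.1% in uninjured, and 12 of the 21 Bglap UMIs at day 3 came from 1 cell. Alpl was also concentrated at day 3, where the 10 richest cells held 25 of the 50 UMIs and 1 cell held 8; in uninjured they held 12.1%. By contrast the 10 richest cells held 2.20% of Ank UMIs at day 3 and 6.20% in uninjured, so Ank was spread over the population. Counting intervals do not include this cell-to-cell spread.

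**Figure D1:**
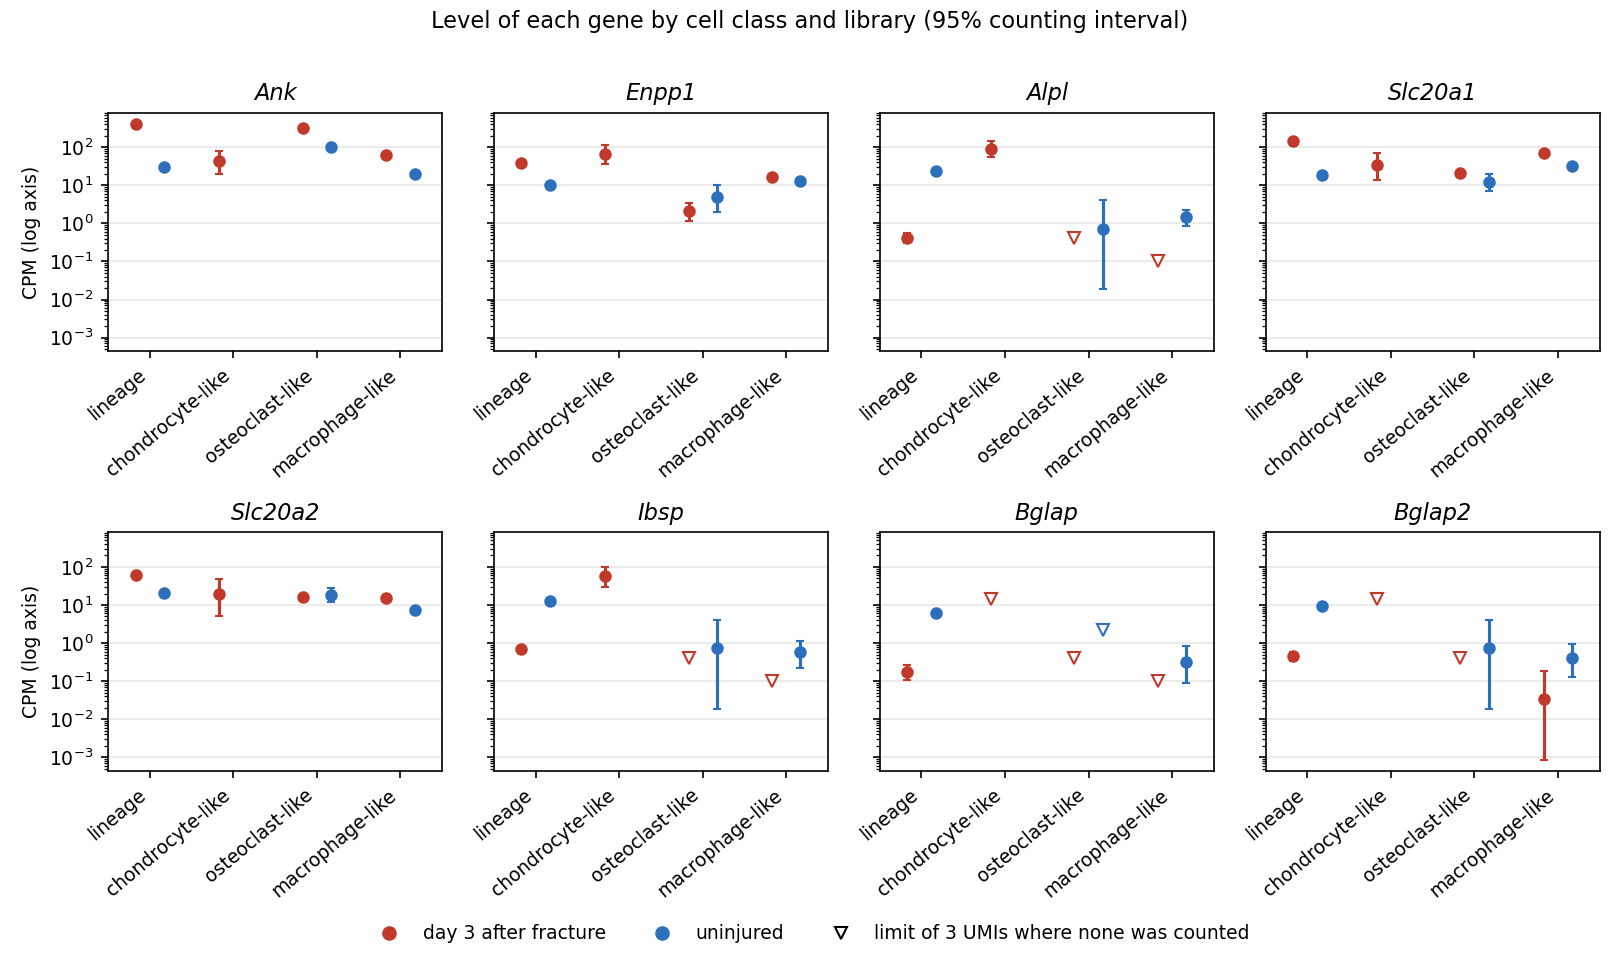
CPM (log axis) of the 8 genes in lineage, chondrocyte-like, osteoclast-like and macrophage-like cells, day 3 in red left of uninjured in blue, with 95% counting intervals; open triangles give the level of 3 UMIs where none was counted. In lineage cells Ank was at 415 CPM at day 3 and 29.4 CPM in uninjured, and Alpl at 0.413 CPM at day 3 and 23.7 CPM in uninjured.

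Of 8249 genes at 10 CPM or more in lineage cells of the higher library, 16.6% exceeded 2-fold in the day-3 direction and 6.75% in the uninjured direction, and the median log2 ratio was 0.22. Of the 8 genes, 6 reached that level; 4 were 2-fold higher (Ank, Enpp1, Slc20a1 and Slc20a2) and 2 were 2-fold lower (Alpl and Ibsp), which the choice of genes fixed. Over a wider list of 44 genes of pyrophosphate, phosphate, vesicle and bone matrix biology that includes the 8, 22 reached 10 CPM, 6 were 2-fold higher and 5 lower, with a median log2 ratio of 0.05. Besides the genes above, the higher ones were Nt5e, the ectoenzyme that turns AMP into adenosine and phosphate (17.6 CPM at day 3 and 2.76 CPM in uninjured), and Spp1, which encodes the acidic mineral-binding protein osteopontin (17203 CPM at day 3 and 1697 CPM in uninjured). The lower ones were the collagen genes Col1a1 (270 CPM at day 3 and 1553 CPM in uninjured) and Col1a2 (945 CPM at day 3 and 2105 CPM in uninjured) and the osteoblast transcription factor gene Dlx5 (3.77 CPM at day 3 and 15.9 CPM in uninjured). The osteoblast regulators Runx2 and Sp7 stayed within 2-fold, with ratios of 1.12 (1.06 to 1.18) and 0.718 (0.663 to 0.777).

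Shares of cells were compared after thinning each cell to 3000 UMIs, which leaves out 66 lineage cells at day 3 and 14 in uninjured. A UMI of Ank was then seen in 62.7% of day-3 lineage cells (61.1 to 64.3) and in 7.50% of uninjured ones (6.55 to 8.54). A UMI of Alpl was seen in 0.145% of day-3 lineage cells (0.0470 to 0.338) and in 5.30% of uninjured ones (4.50 to 6.19). Macrophage-like cells, which should lack Alpl, had a UMI of it in 0 of 3997 thinned cells at day 3, so a share up to 0.0751% is possible, and in 0.362% in uninjured (0.0986 to 0.923). Unthinned, Ank was in 95.5% of lineage cells at day 3 and 40.9% in uninjured, and Alpl in 0.995% at day 3 and 18.6% in uninjured. In thinned day-3 lineage cells 3 cells held both transcripts, 2163 Ank alone, 2 Alpl alone and 1285 neither. In thinned uninjured lineage cells 12 cells held both, 199 Ank alone, 137 Alpl alone and 2465 neither. Alpl was seen in 5.69% of the Ank-positive and 5.27% of the Ank-negative uninjured cells.

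Within the uninjured lineage the matrix genes and Alpl were concentrated in 1 sub-cluster. It held 228 cells, was led by Mmp13, Cdsn and Timp3 with Sp7 among its 10 leading genes, had 3 osteoblast markers detected, and is called osteoblast-like. Alpl was at 155 CPM there and 10.3 CPM in the remaining 2599 uninjured lineage cells. Ibsp was at 130 CPM there and 1.18 CPM in the rest, Bglap at 45.7 CPM and 2.09 CPM, and Bglap2 at 80.0 CPM and 2.36 CPM. Ank went the other way, at 16.6 CPM in the osteoblast-like cells and 30.7 CPM in the rest, as did Enpp1 at 4.08 CPM and 11.0 CPM. Slc20a2 was nearly level, at 19.7 CPM and 21.4 CPM. The rest includes the sub-clusters with macrophage and osteoclast markers, where Ank was at 37.4 CPM and 52.8 CPM. Over all uninjured sub-clusters Ank ran from 5.03 to 52.8 CPM, and it was at 16.8 CPM in another of 425 cells. A low Ank level was thus not particular to the osteoblast-like cells. The 228 cells held 60.4% of the Alpl UMIs of the uninjured lineage. Since the cells were grouped by their expression, these differences are a description.

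**Figure D2:**
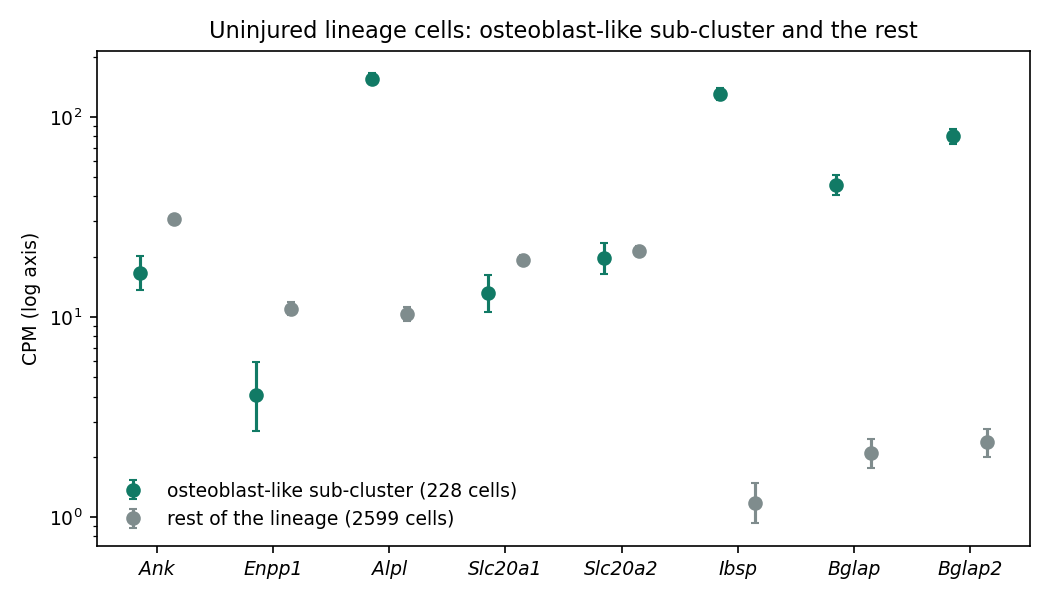
CPM (log axis) of the 8 genes in the 228 osteoblast-like cells (green) and the other 2599 lineage cells (grey) of the uninjured library, with 95% counting intervals. Alpl, Ibsp, Bglap and Bglap2 are higher in the osteoblast-like cells, Ank, Enpp1 and Slc20a1 are lower, and the Slc20a2 intervals overlap.

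In 2 day-3 sub-clusters osteoblast markers were the highest scoring list, with 3 of 7 detected, but none was among the 10 leading genes. The one with more Sp7 held 250 cells with Sp7 at 34.9 CPM and was led by Mcpt1, Qrfp and Sfrp4; its levels were 568 CPM for Ank, 0.305 CPM for Alpl, 4.27 CPM for Ibsp and 4.07 CPM for Bglap2. The osteoblast score of these 250 cells was 1.21, against 0.772 for the osteoblast-like sub-cluster of uninjured. Scores and leading genes were set against the sub-clusters of the same library, so they do not compare the libraries. Ank ranged from 142 to 753 CPM over the 14 day-3 sub-clusters and from 5.03 to 52.8 CPM over the 12 uninjured ones, so the ranges did not overlap. How many other genes have ranges apart was not counted, and all sub-clusters of a group come from the same library. Alpl ranged from 0 to 3.66 CPM over the day-3 sub-clusters and from 1.01 to 155 CPM over the uninjured ones, which overlapped. Sp7-positive cells made up 121 thinned lineage cells at day 3 and 118 in uninjured. Sp7 was not confined to osteoblast-like cells. At day 3 the 250 cells held 24.9% of the Sp7 UMIs of the lineage and the sub-cluster with macrophage markers 16.2%. In uninjured the osteoblast-like cells held 42.1% and the sub-cluster with macrophage markers 7.89%. The Sp7-positive cells of the libraries may therefore be unlike kinds of cells. Alpl was seen in 0 of the 121 at day 3, which allows up to 2.48%, and in 23 of the 118 in uninjured (19.5%, 12.8 to 27.8). Ibsp was seen in 2 of the 121 at day 3 and 15 of the 118 in uninjured. Ank was at 711 CPM in the Sp7-positive cells at day 3 and 28.2 CPM in those of uninjured.

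**Figure D3:**
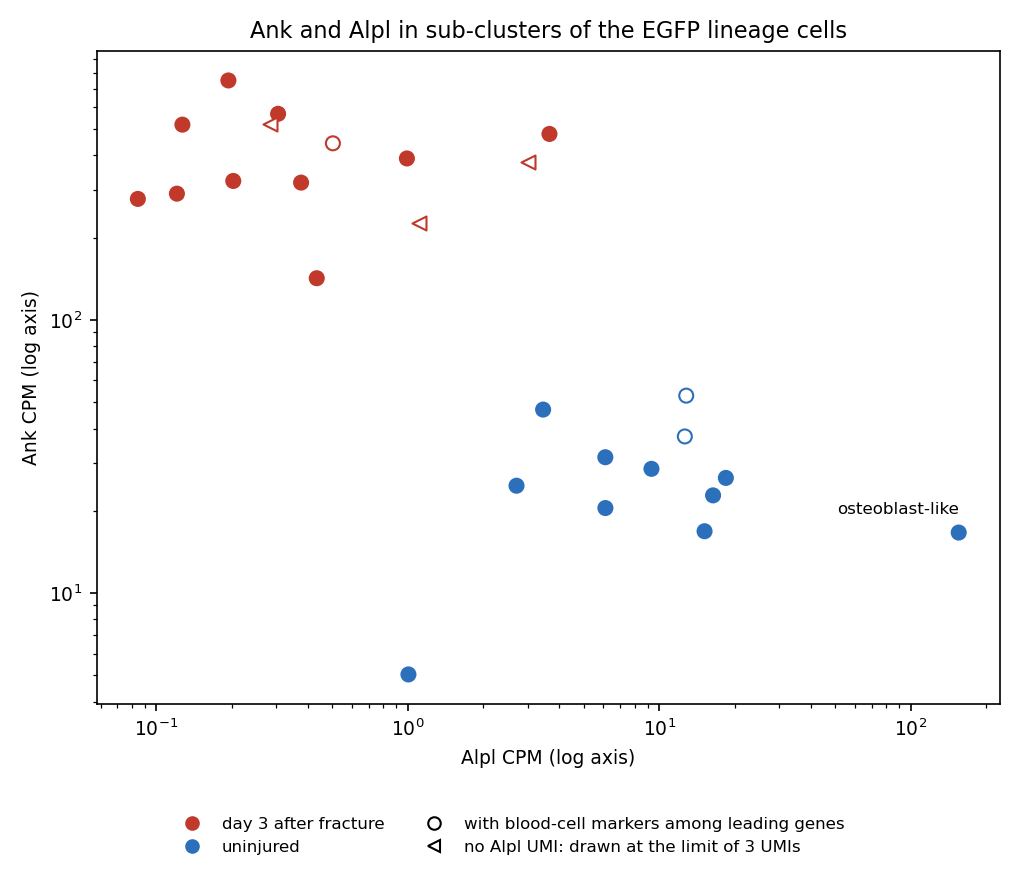
Ank CPM against Alpl CPM (both log axes) in each sub-cluster of the lineage cells, day 3 in red and uninjured in blue. Open circles had a blood-cell type as their highest marker list, with at least 3 of its markers detected. Open triangles had no Alpl UMI and are drawn at 3 UMIs. The day-3 sub-clusters lie at 142 to 753 CPM of Ank and the uninjured ones at 5.03 to 52.8 CPM, and the osteoblast-like sub-cluster stands alone at 155 CPM of Alpl.

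Some settings changed these ratios. Leaving out the 228 osteoblast-like cells takes cells from uninjured alone; the Alpl ratio was then 0.0400, the Bglap ratio 0.0832, the Bglap2 ratio 0.192 and the Ibsp ratio 0.588, under 2-fold. At day 3 the sub-cluster of 250 cells held 42 of the 84 Ibsp UMIs, 15 of the 21 Bglap UMIs and 40 of the 55 Bglap2 UMIs. Without it the Bglap and Bglap2 ratios rest on few day-3 UMIs. Leaving out the sub-clusters with osteoblast markers as the highest list in both libraries (3036 cells stay at day 3 and 2599 in uninjured) gave ratios of 0.351 for Ibsp, 0.0430 for Alpl, 0.0284 for Bglap, 0.0543 for Bglap2 and 13.3 for Ank, each past 2-fold. Macrophage, neutrophil or osteoclast markers led 446 day-3 and 626 uninjured lineage cells; over all lineage cells 8 of 8 macrophage markers were detected in both libraries, with a summed level of 75.1 CPM at day 3 and 447 CPM in uninjured and none at 0. Without those sub-clusters the Ank ratio was 15.8, the Alpl ratio 0.0155 and the Ibsp ratio 0.0417. Without them and the sub-clusters with osteoblast markers in both libraries the ratios were 14.8 for Ank, 0.0458 for Alpl and 0.392 for Ibsp; with the osteoblast-like cells taken from uninjured alone they were 15.05, 0.0423 and 0.772 for the same genes. In cells with a Y-linked UMI and no Xist UMI (522 at day 3 and 2337 in uninjured) the Ank ratio was 12.4 and the Alpl ratio 0.00430, from 2 Alpl UMIs at day 3 and 1481 in uninjured.

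Chondrocyte-like cells at day 3 showed the opposite balance to the other EGFP cells of that library. Alpl had 19 UMIs in 17 of the 163 cells, 91.0 CPM (54.8 to 142), against 0.413 CPM in day-3 lineage cells, a ratio of 220 (123 to 380). Ibsp had 12 UMIs in 5 cells, 57.5 CPM (29.7 to 100.4), against 0.694 CPM in lineage cells. Ank had 9 UMIs, 43.1 CPM (19.7 to 81.8), against 415 CPM in lineage cells, a ratio of 0.104 (0.0474 to 0.197). These cells thus stood above the lineage cells for Alpl and Ibsp and below them for Ank.

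Enpp1 was at 67.1 CPM in chondrocyte-like cells (36.7 to 113), against 39.0 CPM in lineage cells, and the interval of the ratio, 0.940 to 2.89, included 1. Slc20a1 was at 33.5 CPM (7 UMIs) and Slc20a2 at 19.2 CPM (4 UMIs). Both were below the lineage cells, by ratios of 0.230 (0.0924 to 0.474) and 0.305 (0.0831 to 0.782). Bglap and Bglap2 had 0 UMIs, which allows up to 14.4 CPM. Of the 17 cells with Alpl, 13 had a UMI of the cartilage proteoglycan gene Acan, 9 of Col2a1, 17 of Col1a1 and 0 of Ibsp. Of the 146 cells without Alpl, 63 had a UMI of Acan, 51 of Col2a1, 145 of Col1a1 and 5 of Ibsp. Ibsp was seen in too few cells to tell whether it and Alpl lie in separate cells. The median of 1170 UMIs per chondrocyte-like cell was far under that of lineage cells, and none reached 3000 UMIs. The mesenchymal markers summed to 36282 CPM in them against 2505 CPM in day-3 lineage cells. Of 8 macrophage markers 0 were detected in 10% of them, 2 were at 0 and the sum was 67.1 CPM. The deeper day-3 lineage cells had a similar sum, 75.1 CPM, with 8 of 8 detected. Tendon-cell markers summed to 968 CPM in the chondrocyte-like cells, led by Fmod at 517 CPM, against 10.4 CPM in day-3 lineage cells. Osteoclast markers summed to 330 CPM against 124 CPM, and neutrophil markers to 273 CPM against 184 CPM. The class was thus not free of markers of other cell types. What part depth had in these levels was not tested.

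In osteoclast-like cells Ank was high and Alpl, Ibsp, Bglap and Bglap2 were at 0 or 1 UMI, as Ank was high and these genes low in day-3 lineage cells. At day 3 they were below lineage cells in Enpp1 (ratio 0.0526), Slc20a1 (0.145) and Slc20a2 (0.262). Ank was at 319 CPM at day 3 (306 to 332) and 104 CPM in uninjured (88.1 to 123), a ratio of 3.05 (2.58 to 3.64). Macrophage-like cells, the largest named myeloid class, had Ank at 61.9 CPM at day 3 and 19.3 CPM in uninjured. The osteoclast-like cells were therefore 5.14-fold higher at day 3 (4.84 to 5.47) and 5.40-fold higher in uninjured (4.36 to 6.67). Against lineage cells of the same library they were at a ratio of 0.767 at day 3 and 3.55 in uninjured. Over these 4 classes the order of Ank levels was day-3 lineage, day-3 osteoclast-like, uninjured osteoclast-like, day-3 macrophage-like, day-3 chondrocyte-like, uninjured lineage and uninjured macrophage-like cells. The chondrocyte-like interval overlapped those of its neighbours on both sides, and the other neighbours did not overlap. Clusters outside these classes are not in this order. Among them, the unnamed clusters with osteoclast markers had Ank at 175 CPM at day 3 (1173 cells) and 47.8 CPM in uninjured (161 cells). Both values were below those of the osteoclast-like cells of the same library. The day-3 cluster with antigen-presenting markers (118 cells) had Ank at 156 CPM, and day-3 neutrophil-like cells at 12.5 CPM.

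Enpp1 was at 2.05 CPM in day-3 osteoclast-like cells and 5.08 CPM in uninjured ones, from 15 UMIs at day 3 and 7 in uninjured. Slc20a1 was at 21.2 CPM at day 3 and 12.3 CPM in uninjured, a ratio of 1.72 (1.04 to 3.03), and Slc20a2 at 16.4 CPM at day 3 and 18.9 CPM in uninjured, a ratio of 0.871 (0.566 to 1.39). Alpl, Ibsp and Bglap2 each had 0 UMIs at day 3, which allows up to 0.410 CPM, and 1 UMI in uninjured, and Bglap had 0 in both. Mesenchymal markers summed to 48.8 CPM in these cells at day 3 and 210 CPM in uninjured. Of 7627 genes at 10 CPM or more in osteoclast-like cells, 18.0% were 2-fold higher at day 3 and 3.11% lower. Of the 3 studied genes that reached this level Ank alone was 2-fold higher, and none was 2-fold lower.

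In macrophage-like cells (5818 at day 3 and 1179 in uninjured) Slc20a1 was at 71.9 CPM at day 3 and 31.4 CPM in uninjured, and Slc20a2 at 14.9 CPM at day 3 and 7.28 CPM in uninjured. Enpp1 was at 16.6 CPM at day 3 and 12.7 CPM in uninjured. With Ank, 3 of the 4 genes that reached 10 CPM were 2-fold higher, beside 34.4% of 8288 genes, and 0 were 2-fold lower, beside 4.92%. TMM scaling moved the log2 ratio of every gene by -0.48 in macrophage-like cells, -0.27 in osteoclast-like cells and -0.05 in lineage cells. Under it Slc20a1 and Slc20a2 in macrophage-like cells had ratios of 1.64 and 1.47.

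**Figure D4:**
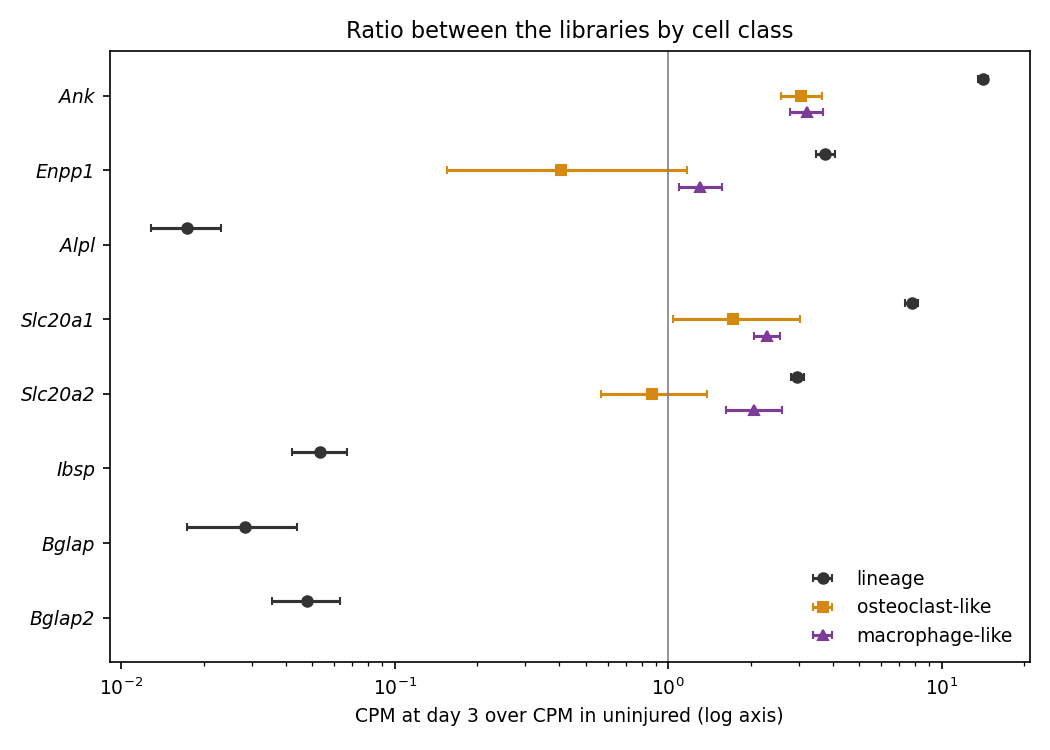
CPM at day 3 over CPM in uninjured (log axis) with 95% counting intervals, for lineage (circles), osteoclast-like (squares) and macrophage-like (triangles) cells; pairs with fewer than 20 UMIs in all, or with 0 at day 3, are left out. Ank lies right of 1 in each class, at 14.1, 3.05 and 3.20, and Alpl, Ibsp, Bglap and Bglap2 are drawn for lineage cells alone, left of 1.

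Over 26 groups of cells (clusters split by library, each with at least 50 cells) log2(CPM + 1) of Ank and Alpl had a Pearson r of -0.363. The groups of a library share its depth, animals and culture, so r describes these groups. Of 10706 genes, those most like Ank were Mapk6 (r = 0.90), Rai14 (0.88), mt-Nd2 (0.87), Efl1 (0.87) and Ppp1r14b (0.86). Among the listed genes Slc20a2 (0.78) and Slc20a1 (0.71) were nearer to Ank than Enpp1 (0.36). The genes most like Alpl were Itga11 (0.98), Pth1r, the parathyroid hormone receptor gene (0.98), Tnmd, a tendon gene (0.98), Srpx (0.97) and Prelp (0.97). Ibsp followed Alpl with r = 0.90, and Bglap and Bglap2 with 0.69 each. Over these groups Alpl and Ibsp were highest in the shallow chondrocyte-like group, at 91.0 CPM from 19 UMIs and 57.5 CPM from 12 UMIs. Alpl had 0 UMIs in day-3 macrophage-like cells. What part the chondrocyte-like group and the groups at 0 had in the r values of Alpl was not tested.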

How the data were processed

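Cells of 2 libraries, 1 at day 3 after fracture and 1 uninjured, were measured with a Chromium 3′ kit, per the labels. The authors deposited raw UMI counts per gene and barcode; the matrix header names Cell Ranger software version 3.1.0, and the submitters' processing notes name Seurat 4.0.1 and the build mm10. All values were computed from these counts. Barcodes with under 500 genes, under 1000 UMIs or over 10% mitochondrial UMIs were left out (1869 at day 3 and 142 in uninjured). The automatic doublet threshold of Scrublet (scanpy 1.11.5) marked 0 cells, so 0.8% per 1000 barcodes was removed by score (1890 cells at day 3 and 162 in uninjured). Clustering (Leiden, resolution 1, 2000 variable genes, 30 components) left out the 8 genes and the reporters. Classes were named from marker lists; the rule that Acp5 must be among the 10 leading genes of osteoclast-like cells was set after the clusters were seen, and it left unnamed 1177 day-3 cells (9.36%) and 168 uninjured cells (3.94%) of clusters with osteoclast markers. Levels are CPM over summed counts with exact Poisson intervals, ratios have exact conditional binomial intervals and shares have Clopper-Pearson intervals, each at 95%; with 1 library per group no test was made. UMIs limit the precision, and 3 UMIs give the limit where 0 were counted. TMM factors came from edgeR 4.0.16. Genes named are the 8, those of the pathway lists at 10 CPM or more and 2-fold apart, with Runx2 and Sp7 named for their role, and the 5 most like Ank and Alpl. The genes, lists and alternatives were chosen with earlier results of these data known. The procedures were tested on simulated counts.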

Additional observations from a re-analysis of the deposited data

Results flagged for a closer look

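Enpp1 and Slc20a2 had ratios of day 3 over uninjured on opposite sides of 1 in osteoclast-like and lineage cells. In osteoclast-like cells the ratio was 0.404 (0.155 to 1.17) for Enpp1 and 0.871 (0.566 to 1.39) for Slc20a2, against 3.76 and 2.96 in lineage cells. Both osteoclast-like intervals include 1, each group is 1 library, and the difference between the classes was not tested.

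Barcodes left out by the filters on genes, UMIs and mitochondrial share held Ank at 266 CPM at day 3 (1869 barcodes) and 29.6 CPM in uninjured (142 barcodes), a signal in data that the comparisons do not use.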

How the results depend on the processing

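Log2 ratios of day 3 over uninjured in lineage cells were recomputed under 18 alternatives. Ank (3.82) and Alpl (-5.84) kept their direction and stayed past 2-fold in all 18. Ank was outside its counting interval at 4.02 when thinned, 3.93 with equal weight per cell, 3.63 in male cells, 4.30 without cycling cells, 3.98 without sub-clusters with blood-cell markers, 3.91 without these and the osteoblast-like cells, 3.74 without the sub-clusters with osteoblast markers in both libraries and 3.89 without those and the ones with blood-cell markers. Alpl was outside at -5.38 with chondrocyte-like cells counted in, -7.86 in male cells, -4.64 without osteoblast-like cells, -4.56 without these and the blood-cell ones, and -4.54 and -4.45 in the last 2 settings named for Ank. The settings without sub-clusters were chosen after seeing the data, and the cause was not tested. In osteoclast-like cells Ank (1.61) ran from 1.32 to 2.02 over 8 alternatives and in macrophage-like cells (1.68) from 1.20 to 2.00 over 11. Of the other 6 genes in lineage cells, 5 stayed past 2-fold in all 18; Ibsp did in 16. With a minimum of 50 CPM instead of 10, 568 genes were 2-fold higher and 227 lower, against 1367 and 557; with 1 CPM, 2015 were higher and 1347 lower. No paired analysis was possible because each group is 1 library. The chondrocyte-like values, 208780 UMIs in all, are limited by depth.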

Other observations

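The 5 listed genes of osteocytes, the cells buried in bone matrix, lie under 10 CPM in lineage cells. Of these, Mepe had 1 UMI at day 3 and 0 in uninjured, Fgf23 had 1 at day 3 and 2 in uninjured, and Sost had 0 in both. The genes below were picked after their values were seen. Dmp1, which encodes a matrix protein of osteocytes, had 227 UMIs in day-3 lineage cells and 2 in uninjured ones, a ratio of 67.4 (18.4 to 560). Phex, which encodes an endopeptidase of phosphate regulation, had 209 UMIs at day 3 and 20 in uninjured, a ratio of 6.20 (3.91 to 10.4). Smpd3, which encodes a sphingomyelinase needed for mineralization, had 23 UMIs at day 3 and 158 in uninjured, a ratio of 0.0864 (0.0532 to 0.134).

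Without the cell filter 657 more day-3 barcodes, with a median of 686 UMIs, joined chondrocyte-like cells. They held Alpl at 99.3 CPM (46 UMIs) and Ibsp at 104 CPM (48 UMIs), with Ank at 67.0 CPM (31 UMIs). The 46 Alpl UMIs were all those counted in day-3 barcodes that the filter left out.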
